A study of Homo sapiens with 6 samples.

Results

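The mRNAs of the 3 IGF2BP proteins (IGF2BP1, IGF2BP2 and IGF2BP3) and of the 5 human YTH domain proteins (YTHDF1, YTHDF2, YTHDF3, YTHDC1 and YTHDC2) were followed through RNA immunoprecipitation sequencing (RIP-seq). In this assay an antibody against an RNA-binding protein is incubated with a cell lysate, and the RNA that comes down with the beads is sequenced. The 8 genes were taken by their symbols from the 60655 rows of the count table, and each symbol had 1 row. The cells were WaGa, an untreated and genetically unmodified line from a Merkel cell carcinoma that carries the Merkel cell polyomavirus. RNA came down either with an antibody against IGF2BP3 (IGF2BP3 IP, n = 3) or with non-specific IgG as negative control (IgG IP, n = 3), and the 3 replicates of each were described as independent. All 6 libraries come from this single line, and no library of the unprecipitated RNA was analysed here, so that RNA level and recovery on the beads cannot be told apart. The 10 Merkel cell carcinoma markers chosen for a check of the label, among them KRT20, CHGA and ATOH1, summed to between 4030 and 4450 normalized CPM (counts relative to the TMM-scaled library size) in each library, and 9 of them passed the filter on low counts, the exception being NEUROD1 with 0 to 2 counts. Fibroblast markers summed to 41.6 to 52.0 normalized CPM, of which DCN made up nearly all (COL1A1 and COL1A2 had 0 to 2 counts), while melanocyte, lymphocyte and keratinocyte markers summed to at most 0.871, 0.134 and 1.08, with MLANA, TYR, CD3E, PTPRC and KRT14 at 0.

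IGF2BP proteins are cytoplasmic RNA-binding proteins with RRM and KH domains that stabilize and localize bound mRNAs and can regulate their translation, and they were described as readers of N6-methyladenosine (m6A). The YTH proteins hold the methylated base in a pocket of the YTH domain. YTHDF1, YTHDF2 and YTHDF3 act in the cytoplasm on translation and decay, YTHDC1 acts in the nucleus on splicing and export, and YTHDC2 is an RNA helicase known for its role in germ cells. IGF2BP1 and IGF2BP3 are mainly oncofetal, whereas IGF2BP2 is more widely made in adult tissue.

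Since all but the YTHDC genes are close paralogs, the sequences show how far their reads can be told apart. The first set below is the same 90-base stretch of the IGF2BP coding sequences, inside exon 6 and in the first KH domain, read from GRCh38. It lies at chr7:23351310-23351399, minus strand, for IGF2BP3 (coding position 589), at chr17:49038355-49038444, plus strand, for IGF2BP1 and at chr3:185689360-185689449, minus strand, for IGF2BP2. Capitals mark the bases that differ from IGF2BP3.
IGF2BP3: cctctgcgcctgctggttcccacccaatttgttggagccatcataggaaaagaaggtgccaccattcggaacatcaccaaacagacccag
IGF2BP1: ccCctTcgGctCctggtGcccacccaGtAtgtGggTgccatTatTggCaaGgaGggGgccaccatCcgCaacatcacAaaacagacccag
IGF2BP2: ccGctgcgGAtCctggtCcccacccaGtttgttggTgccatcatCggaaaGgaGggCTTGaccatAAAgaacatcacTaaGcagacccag
In this stretch 72 of 90 bases of IGF2BP1 and 71 of IGF2BP2 were those of IGF2BP3. The second set is a 90-base stretch at the start of the YTH domain in exon 4 of YTHDF1 (chr20:63202719-63202808, minus strand) and YTHDF2 (chr1:28743465-28743554, plus strand), with capitals where YTHDF2 differs from YTHDF1.
YTHDF1: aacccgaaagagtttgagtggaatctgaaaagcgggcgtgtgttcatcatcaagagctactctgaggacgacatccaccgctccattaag
YTHDF2: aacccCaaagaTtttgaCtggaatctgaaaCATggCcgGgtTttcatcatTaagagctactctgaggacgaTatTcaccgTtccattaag
Here 77 of 90 bases were alike. Over whole reference transcripts, the longest identical run was 22 bases for IGF2BP1 and IGF2BP2, 21 for IGF2BP1 and IGF2BP3, 20 for YTHDF1 and YTHDF2 and 13 for YTHDC1 and YTHDC2, against reads of 150 bases.

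The levels of the members fell into a silent and a detected group. IGF2BP2 had 0 counts and a TPM (the RSEM estimate of transcript abundance, a level per length) of 0 in all 6 libraries. IGF2BP1 had 1 count, in IgG IP replicate 2 (0.01 TPM, beside 67.6 TPM of IGF2BP3 there), and none in the other 5 libraries. A count of 0 allows up to 3 counts, which was 0.201 to 0.325 CPM depending on the library. Per length, IGF2BP3 was at least 445-fold higher than IGF2BP2 in every library, so that IGF2BP3 was the only IGF2BP mRNA above the floor. The antisense gene IGF2BP2-AS1 also had 0 counts, and a pseudogene inside IGF2BP1 (ENSG00000251550) had 0 to 1.

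**Figure D1:**
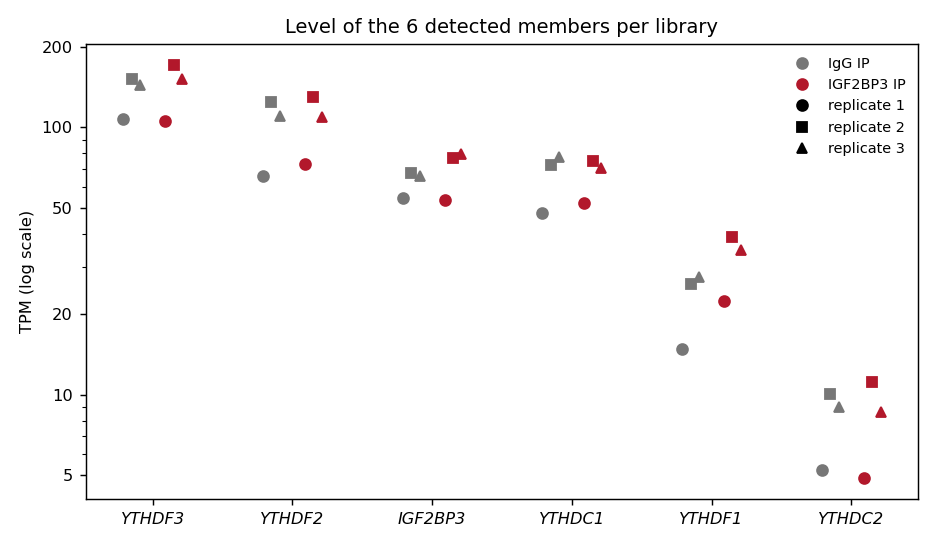
TPM (log scale) of the 6 detected members in each library, grey for IgG IP and red for IGF2BP3 IP, with the marker shape giving the replicate number. YTHDF3 lies highest and YTHDC2 lowest in each library, with IGF2BP3 and YTHDC1 side by side.

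Among the 6 detected mRNAs the order of TPM was YTHDF3, YTHDF2, IGF2BP3, YTHDC1, YTHDF1 and YTHDC2. YTHDF3 stood at 107, 151 and 144 TPM with IgG (values in the order of replicates 1 to 3, here and throughout) and at 105, 171 and 151 TPM with the IGF2BP3 antibody. IGF2BP3 stood at 54.3, 67.6 and 65.6 TPM in IgG IP and at 53.4, 77.1 and 79.1 TPM in IGF2BP3 IP, which placed it at the 85.1 to 87.3 percentile of protein-coding genes with a TPM above 0. YTHDC2, the least abundant, stood between 4.88 and 11.2 TPM. Within each group, each of these mRNAs was lowest in the replicate 1 library, and in both replicate 1 libraries the most abundant RNA, the small nuclear RNA RN7SK, took 105483 and 100946 TPM against 37406 to 59519 in the others. Neighbours in the order were compared within libraries with an exact two-sided sign-flip permutation test over 6 libraries, adjusted over 5 pairs. The order came from the mean log2 TPM of the same libraries, so the pairs and their direction were taken from the values tested. YTHDF3 exceeded YTHDF2 by 1.38-fold, YTHDF2 exceeded IGF2BP3 by 1.51-fold, YTHDC1 exceeded YTHDF1 by 2.47-fold and YTHDF1 exceeded YTHDC2 by 3.36-fold, each in 6 of 6 libraries (adjusted p = 0.039 by this exact test, which flips the libraries independently). When the libraries of a replicate number were flipped together, an alternative chosen after seeing the data, the exact p was 0.25 for each of these 4 pairs, the smallest that 3 numbers allow, so that none passed. IGF2BP3 and YTHDC1 did not differ beyond their spread, with a mean log2 TPM difference of 0.02 ± 0.16 (SD over 6 libraries, exact p = 0.844).

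The contrast between both precipitations asked which of these mRNAs held a larger share of the RNA with the IGF2BP3 antibody than with IgG. Counts were scaled to library size, so the total amount of RNA recovered by each antibody does not enter. A log2 fold change near 0 thus means a difference like that of the typical tested gene (median -0.01). It does not show that an mRNA was not recovered above the non-specific background. None of the 8 members was called higher or lower by edgeR's quasi-likelihood test at a fold change of at least 1.5 and an adjusted p below 0.05, and DESeq2 called none either. The 6 detected members were tested, and 1 of them, YTHDF1, had an unadjusted p below 0.05, as did 12.8% of all tested genes. Among the 14507 genes tested, 169 were called higher, which is 1.16%, and 0 lower, with 59 at an unadjusted p below 0.05 and a fold of at least 1.5 in that direction. YTHDF1 was the only member whose IGF2BP3 IP libraries all lay above all IgG IP libraries in normalized CPM (12% of all tested genes did so), and YTHDC1 the only one with all of them below (8.69% of all tested genes).

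**Figure D2:**
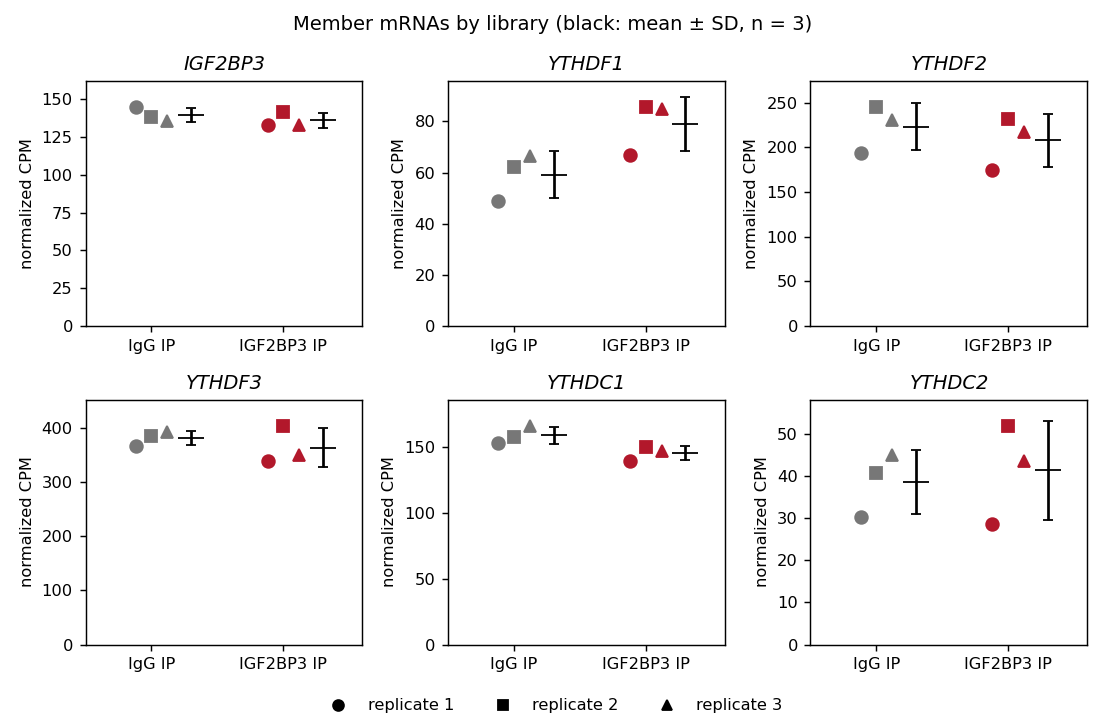
Normalized CPM of the 6 detected members per library, with an axis from 0 in each panel. Points are libraries, marker shapes are replicate numbers, and black bars are the mean ± SD of 3 libraries. The groups are apart for YTHDF1 and YTHDC1 and overlap for the other 4.

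The IGF2BP3 mRNA itself, whose protein the antibody targets, did not differ between the groups beyond the replicate spread. It had 145, 138 and 136 normalized CPM in the IgG libraries and 133, 142 and 133 in those of the IGF2BP3 antibody, from 1334 to 2060 counts per library. The groups overlapped, and the means were 136 ± 4.92 in IGF2BP3 IP and 139 ± 4.66 in IgG IP (SD, n = 3). The log2 fold change was -0.04 (95% confidence interval -0.21 to 0.13, edgeR adjusted p = 0.885), which on the linear scale bounds the fold between 0.867 and 1.10. The sign turned with the correction for transcript GC content (0.07) and with TPM values (0.14). The gene (ENSG00000136231.14) lies on chromosome 7 (GRCh38, 23310209 to 23470491, minus strand, 15 exons), where MALSU1 overlaps on the other strand with 381 to 484 counts. MALSU1 had a log2 fold change of -0.15 (edgeR adjusted p = 0.691), and the share of its reads in the IGF2BP3 counts was not tested.

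YTHDF1, the reader linked to translation of m6A mRNAs, had the highest fold change of the tested members. The gene (ENSG00000149658.18) lies on chromosome 20 (GRCh38, 63195429 to 63216139, minus strand, 5 exons). It had 48.9, 62.1 and 66.5 normalized CPM in the IgG libraries and 66.7, 85.5 and 84.8 in those of the IGF2BP3 antibody, from 451 to 1132 counts. The groups were apart by a narrow margin, since the lowest IGF2BP3 IP library barely exceeded the highest IgG IP library. The means were 79.0 ± 10.7 and 59.1 ± 9.14 (SD, n = 3), and the log2 fold change was 0.41 with an SE of 0.14, a fold of 1.33 (95% confidence interval 1.07 to 1.66). Its edgeR p was 0.0157 and its edgeR adjusted p = 0.244. The exact two-sided permutation test gave p = 0.10, the smallest it allows with 3 libraries against 3. YTHDF1 thus fell short of both the fold and the adjusted p in this fit, and 10.4% of all tested genes had a higher log2 fold change.

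The comparison was also made with the replicate number as a block. The deviations from the group means correlated across genes at 0.568, 0.277 and 0.231 for libraries of the same number, but at 0.277 and 0.269 for the cross pairs of replicates 2 and 3, so that they set replicate 1 apart and do not show that replicates 2 and 3 pair by number. The same-numbered differences of YTHDF1 were 0.45, 0.46 and 0.35 (log2 CPM, replicates 1 to 3), and the blocked fit gave 0.42 (95% confidence interval 0.28 to 0.56, edgeR adjusted p = 9.1e-05). It was the only member with an adjusted p below 0.05 in this fit, 1 higher and 0 lower, whereas 10.9% of all tested genes were higher and 5.23% lower by that measure. It remained under the 1.5-fold minimum, which 3.56% of all tested genes passed as higher in the blocked fit. Without both replicate 1 libraries, which stood apart in both groups, the log2 fold change was 0.41 (edgeR adjusted p = 6.0e-04). This fit was chosen after seeing the data and kept only replicates 2 and 3 of each group. Their counts were closer to each other than to replicate 1, and the p rests on the spread between them alone. In that fit 466 of 14677 tested genes were called higher, which includes the 1.5-fold minimum that YTHDF1 did not reach. With no filter beyond 1 count and no block, the edgeR adjusted p was 0.040 at a log2 fold change of 0.40. This was also under the fold minimum, which 359 of 29184 genes passed as called higher. For neither fit is the share of all genes with an adjusted p below 0.05 at any fold given here. How rare such a p is among all genes is thus not shown for them. In TPM the groups of YTHDF1 overlapped, at 14.9, 26.1 and 27.5 in IgG IP and 22.5, 38.7 and 34.7 in IGF2BP3 IP.

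**Figure D3:**
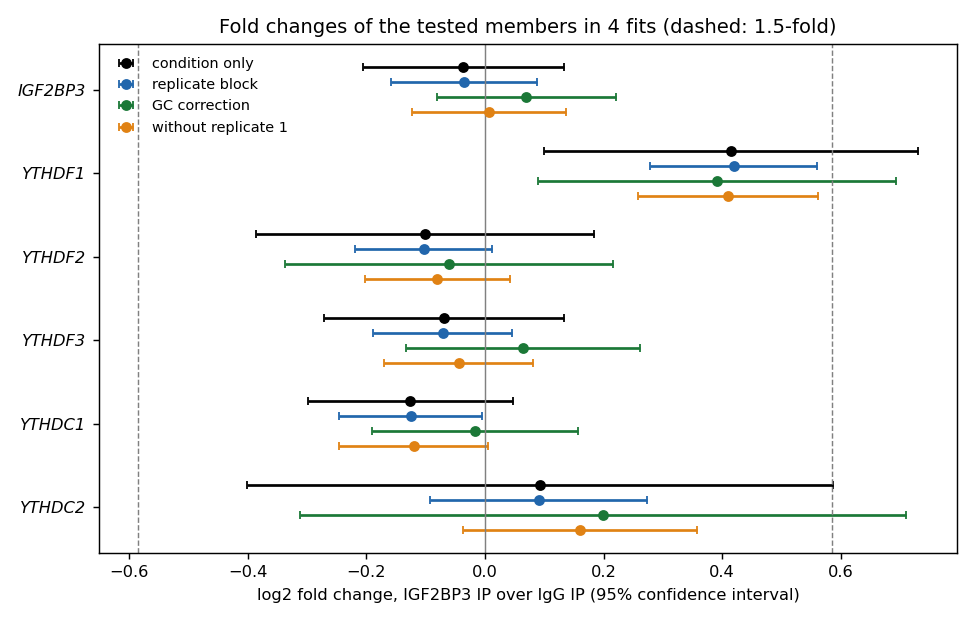
Log2 fold change of IGF2BP3 IP over IgG IP with 95% confidence intervals for the 6 tested members in 4 fits (condition only, replicate block, GC correction, without replicate 1), with dashed lines at 1.5-fold. YTHDF1 lies right of 0 in all 4 fits, and the points of the other members lie between -0.13 and 0.20.

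The other cytoplasmic readers had fold changes close to 0. YTHDF2, which recruits the deadenylase complex to m6A mRNAs, had 194, 245 and 231 normalized CPM in the IgG libraries and 175, 232 and 217 in those of the IGF2BP3 antibody. The groups overlapped, with means of 208 ± 29.8 in IGF2BP3 IP and 223 ± 26.4 in IgG IP (SD, n = 3), and the log2 fold change was -0.10 (95% confidence interval -0.39 to 0.18, edgeR adjusted p = 0.792). YTHDF3, described as acting with the other YTHDF proteins, had 366, 385 and 392 normalized CPM in IgG IP and 338, 403 and 349 in IGF2BP3 IP. Its groups overlapped too, with a log2 fold change of -0.07 (95% confidence interval -0.27 to 0.13, edgeR adjusted p = 0.804). The antisense gene YTHDF3-AS1 had 16 to 36 counts against 3373 to 5740 of YTHDF3, a non-coding gene on the other strand of YTHDF2 (ENSG00000289291) was not analysed here, and the pseudogenes YTHDF1P1 and YTHDF2P1 had 0 and 0 to 6 counts.

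Because scaling cancels in a ratio of mRNAs within a library, the YTHDF paralogs were also set against each other. The count ratio of YTHDF1 over YTHDF2 was 0.253, 0.254 and 0.288 in the IgG libraries and 0.382, 0.368 and 0.391 in those of the IGF2BP3 antibody, so that the groups were apart. The mean difference of the log2 ratio was 0.52 with a 95% confidence half-width of 0.19. The ratio of YTHDF1 over YTHDF3 was 0.134, 0.161 and 0.169 in IgG IP and 0.197, 0.212 and 0.243 in IGF2BP3 IP. Its log2 difference was 0.49 (half-width 0.38), without overlap. Both ratios hold YTHDF1, whose groups were apart in normalized CPM too. They are thus not independent of that result or of each other. How often ratios of other genes are apart was not tested. Both had p = 0.10 by the exact two-sided permutation test, the smallest possible, and p = 0.20 after adjustment over the 4 pairs of detected paralogs. For YTHDF2 over YTHDF3 the log2 difference was -0.03 (half-width 0.30, exact p = 0.7). In TPM, the share of YTHDF1 in the summed YTHDF mRNAs was 7.93%, 8.65% and 9.76% in IgG IP and 11.2%, 11.4% and 11.8% in IGF2BP3 IP, while YTHDF3 made up 50.2% to 57.1% throughout.

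**Figure D4:**
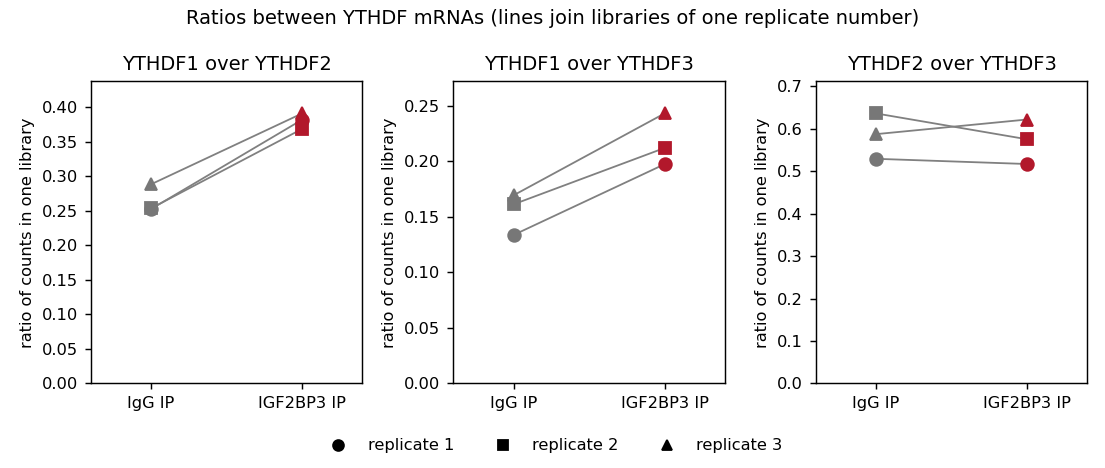
Ratio of the counts of 2 YTHDF mRNAs within each library, from 0, with lines joining libraries of the same replicate number. Both ratios with YTHDF1 on top are higher in IGF2BP3 IP in all 3 replicates, and the ratio of YTHDF2 over YTHDF3 overlaps between groups.

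Of the YTHDC genes, YTHDC1 had 153, 158 and 166 normalized CPM in the IgG libraries and 140, 150 and 147 in those of the IGF2BP3 antibody. All IGF2BP3 IP libraries lay below all IgG IP libraries, with means of 146 ± 5.43 and 159 ± 6.80 (SD, n = 3). The log2 fold change was -0.13 (95% confidence interval -0.30 to 0.05, edgeR adjusted p = 0.540), the exact permutation p was 0.10, and the value moved to -0.02 after correction for the GC content of transcripts. YTHDC2 varied most between replicates, with 30.2, 40.9 and 45.1 normalized CPM in IgG IP and 28.6, 52.0 and 43.6 in IGF2BP3 IP. Its groups overlapped, and the interval of the log2 fold change, -0.40 to 0.59 around 0.09 (edgeR adjusted p = 0.906), reached past 1.5-fold on the higher side. The log2 ratio of YTHDC1 over YTHDC2 differed by -0.20 (half-width 0.74, exact p = 0.4).

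Sequence features that the choice of genes did not use were set beside these values. Transcript GC content was 50.9% for YTHDF1, 46.0% for YTHDF2 and 38.4% to 40.5% for IGF2BP3, YTHDF3, YTHDC1 and YTHDC2. The 879 tested genes within 1 percentage point of the GC content of YTHDF1 had a median log2 fold change of 0.03. The GC-corrected value of YTHDF1 was 0.39 (edgeR adjusted p = 0.297). For genes of like GC content the median was -0.08 beside IGF2BP3, -0.03 beside YTHDF2 and -0.11 beside YTHDF3. It was -0.08 beside YTHDC1 and -0.08 beside YTHDC2. The part of GC content in the members' values was not tested. The letters TGGAC and GGACT, which can overlap in TGGACT, were searched on the sense strand of the reference transcripts. GGACT fits the m6A consensus in full. TGGAC holds the GGAC part of it without the base that follows, so its number is not a count of full consensus sites. YTHDF1 held TGGAC 6 times and 23.7% of tested transcripts of like length (within 20%) held it at least as often, while YTHDF3 held it 7 times (34.2% for its length), YTHDF2 4 times (43.2%), IGF2BP3 5 times (50%), YTHDC2 6 times (59.2%) and YTHDC1 5 times (70.9%). GGACT occurred once in YTHDF1, and 94.5% of the transcripts of its length held it, beside 51.5% to 91.5% for the counts of 2 to 4 in the other tested members.

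The other genes of the m6A pathway and of the members' partners were taken as 5 lists. Of their 34 tested genes 0 were called in either direction by edgeR, beside 1.16% called higher and 0 lower among all tested genes. With so low a share, 0 of 34 does not set the lists apart from other genes. The 9 writers of the mark had a median log2 fold change of 0.00, beside -0.01 for all tested genes, and ran from METTL14, the partner of the catalytic METTL3, at -0.22 (edgeR adjusted p = 0.345, 0.028 with the replicate block) to METTL16 at 0.17. The erasers, which remove the mark, had values of 0.25 for FTO (edgeR adjusted p = 0.257, 0.0053 with the replicate block) and 0.14 for ALKBH5. Of the 7 other proteins described as m6A readers PRRC2A was highest, and FMR1 was lowest at -0.18, while RBMX, named after its values were seen, was at -0.15 (edgeR adjusted p = 0.047 with the replicate block). PRRC2A had 88.1 ± 15.1 normalized CPM in IgG IP and 148 ± 26.0 in IGF2BP3 IP (SD, n = 3), a log2 fold change of 0.74 with an SE of 0.16 (edgeR adjusted p = 0.066). With the replicate block its edgeR adjusted p was 5.3e-09, which made it the only gene of the 5 lists called in that fit. That was 1 of the 34 tested list genes, beside 3.56% of all tested genes called higher. METTL14, FTO and RBMX were under 1.5-fold. At an edgeR adjusted p below 0.05 and any fold, 10.9% of all tested genes were higher and 5.23% lower in that fit. The transcript GC content of PRRC2A was 61.7%. In the other genes of its list it ran from 36.3% in FXR1 (log2 fold change -0.10) to 59.4% in FXR2 (-0.02). A part of GC content in the value of PRRC2A was not tested.

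**Figure D5:**
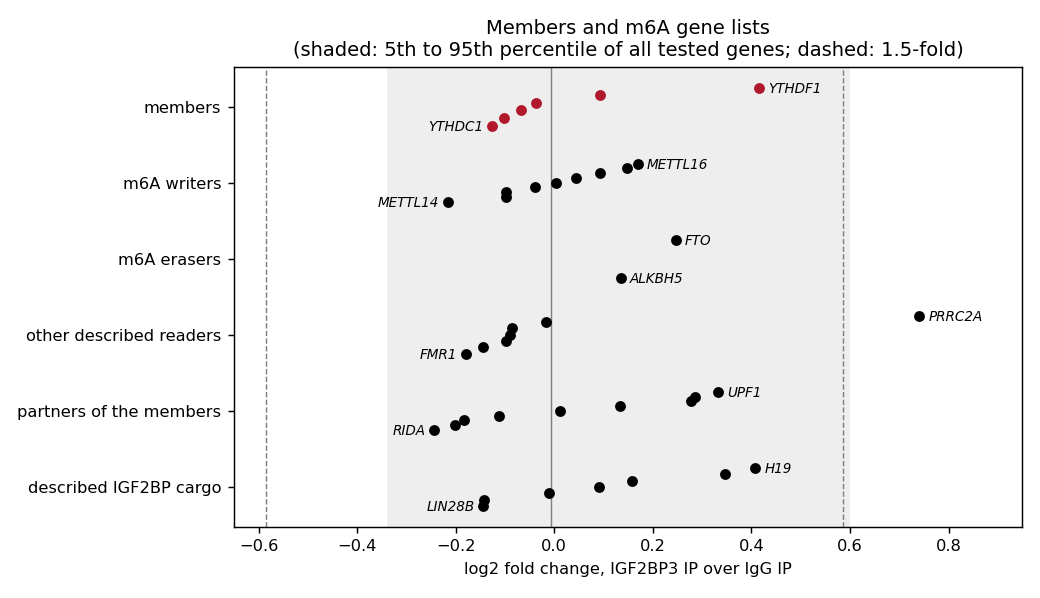
Log2 fold change of IGF2BP3 IP over IgG IP for the 6 tested members (red) and the tested genes of 5 lists (black), each point a gene, with the lowest and highest of each row named. The shaded band runs from the 5th to the 95th percentile of all tested genes (-0.34 to 0.60), and PRRC2A alone lies outside it.

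Among 9 tested partners of the members the median log2 fold change was 0.01, from RIDA, which bridges YTHDF2 to RNA cleavage, at -0.24 to UPF1, the helicase of nonsense-mediated decay, at 0.33. With the replicate block 3 of the 9 partners were higher at an edgeR adjusted p below 0.05, namely ELAVL1 (0.28, adjusted p = 6.4e-04), CNOT1 (0.29, adjusted p = 7.7e-04) and UPF1 (adjusted p = 0.0072). SRSF3 was lower in the same fit (-0.20, edgeR adjusted p = 0.0070). By that measure 10.9% of all tested genes were higher and 5.23% lower. Each of these partners was under 1.5-fold, and all but UPF1 were named after their values were seen, as are CD44 and ACTB. Of the 10 mRNAs described as IGF2BP cargo in other cells 7 were tested, with a median of 0.09. IGF2, the mRNA that gave the family its name, had 0 to 1 counts, HMGA2 had 0 and EGFR 0 to 4. LIN28B was lowest at -0.14, and H19 was highest at 0.41 with a wide spread (edgeR adjusted p = 0.758, 50 to 312 counts). With the replicate block 3 of the 7 were higher at an edgeR adjusted p below 0.05, H19 (adjusted p = 0.016), CD44 (0.34, adjusted p = 8.0e-05) and ACTB (0.16, adjusted p = 0.036), again each under 1.5-fold and beside 10.9% of all tested genes. The 5 tested genes whose normalized CPM followed IGF2BP3 most closely over the 6 libraries were LSAMP, EVA1C, ZNF565, STAU2 and ZNF225. Their Pearson r lay between 0.979 and 0.986, given as a description of libraries that share depth and replicate structure. They were picked as the highest among 14507 tested genes over only 6 libraries, a choice that yields high r by itself. No test was made of these values.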

How the data were processed

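RIP-seq libraries of WaGa cells, 3 per group, were grouped by the sample labels. The authors aligned reads with STAR 2.7.9a to GRCh38 and used GENCODE 37 and RSEM; they deposited whole-number counts per gene, without normalization, and TPM and FPKM values. The counting program and its strand setting were not given in the sources used here. Totals ran from 9758759 to 14886414 counts. Counts were filtered (filterByExpr), TMM-normalized and tested with edgeR 4.0.16 (R 4.3.3) on condition, Benjamini-Hochberg adjusted over all 14507 tested genes. Steps were tested on simulated data. Alternatives were RLE, no filter, DESeq2 1.42.0, limma 3.58.1 (limma-trend) on log2(TPM + 1) and log2(TPM + 0.1), a replicate block, a GC loess and leaving libraries out. Every same-numbered pair of libraries deviated together (correlations across genes 0.568, 0.277 and 0.231), but replicates 2 and 3 correlated as much across numbers (0.277 and 0.269), and replicate 1 was negatively correlated with both. Deviations from a group mean cancel within the group, so the positive value of replicate 1 pushes its values across numbers to be negative. FPKM served as a second check of the order of levels. Members, lists and tests were chosen with earlier results of these data known. Named were all members, overlapping genes, called genes and the extremes of each list, and the 5 genes closest to IGF2BP3. Coordinates and sequences came from GRCh38 with GENCODE 44. MATR3, 1 of the tested partners, had 2 rows, and the one with more counts was used. That row had 75 to 150 counts but 339 to 488 TPM, so its counts may not measure MATR3 in full. The cause was not tested. IGF2BP1 and IGF2BP2 left no ratio or rank, so 4 of 7 planned paralog pairs and 5 of 7 neighbour pairs were compared.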

Additional observations from a re-analysis of the deposited data

How the results depend on the processing

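None of the 8 members was called under any of the 15 alternative fits, of which leaving out both replicate 1 libraries was chosen after seeing the data. YTHDF1 kept a positive log2 fold change in all of them (0.39 to 0.50, and 0.30 to 0.52 with 1 library left out), with adjusted p from 9.1e-05 in the fit with the replicate block to 0.952 with limma-trend on log2(TPM + 0.1), and below 0.05 also with no filter (0.040), with the GC correction and block together (1.2e-04) and without both replicate 1 libraries (6.0e-04). The TPM settings moved the median log2 fold change of all genes to 0.11 (pseudocount 1) and 0.13 (pseudocount 0.1), so their values are to be read against that shift. On log2(TPM + 1) and log2(TPM + 0.1), limma-trend gave 0.14 and 0.15 for IGF2BP3, 0.067 and 0.068 for YTHDF2, 0.075 and 0.075 for YTHDF3 and 0.015 and 0.015 for YTHDC1, all turned from negative, and -0.0019 for YTHDC2 with the second. The GC correction turned IGF2BP3 to 0.0699 and YTHDF3 to 0.064, and with the replicate block to 0.0705 and 0.0637. Without both replicate 1 libraries IGF2BP3 was at 0.0066, and with 1 library left out it ranged from -0.072 to -0.0077. With 1 library left out, YTHDF2 ranged from -0.19 to 0.0086 (positive without IGF2BP3 IP replicate 1) and YTHDC2 from -0.11 to 0.30 (-0.048 without the first IgG library, -0.11 without IGF2BP3 IP replicate 2). The ratio of YTHDC1 over YTHDC2 turned to 0.017 with TPM. The cause of these turns was not tested.

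Over all genes, 169 were called higher and 0 lower. The replicate block gave 517 and 15, the GC correction 110 higher, both together 346 and 24, DESeq2 281 higher, no filter 359 and 1, limma-trend 0 higher with either pseudocount, and leaving out both replicate 1 libraries 466 and 8. With 1 library left out the count called higher ranged from 0 to 244, at 19 without replicate 2 of IgG and 0 without replicate 2 of IGF2BP3 IP, and at 7 and 23 when the respective replicate 3 was left out. YTHDC2 had the fewest counts of the tested members (279 to 689). Of the neighbour pairs in the order of levels, 4 passed with independent sign flips and 0 with flips by replicate number, where 3 numbers cannot reach the threshold.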
